A study of Mus musculus with 6 samples.

Results

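The cardiac connexins Gja1, Gja5 and Gjc1, the pacemaker channels Hcn2 and Hcn4, and the T-type calcium channels Cacna1g and Cacna1h were found by symbol in the table of gene counts. All 7 were present among 50385 genes, each as a single row, and all 7 passed the filter on low counts that left 20472 tested genes. Sodium channel genes were not analysed here. RNA came from hearts of male Mdx/Utrn dKO mice, a model of Duchenne muscular dystrophy without functional dystrophin or utrophin, 2 related proteins that anchor the muscle membrane. Treatment began at 2 to 3 months of age, and both groups carry the same genotype, with no wild-type heart among the 6 samples. One group of 3 libraries received corn oil, the vehicle, and the other group of 3 received the Nox4 inhibitor setanaxib at 60 mg/kg per day, both by daily oral gavage for 12 weeks. The labels give the tissue only as heart and do not say whether the atria were kept.

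Connexins form the gap junctions through which current passes from one heart muscle cell to the next. Connexin 43, from Gja1, is the main connexin of the working ventricle, connexin 40, from Gja5, belongs to atrial muscle, the fast conduction fibres and arterial endothelium, and connexin 45, from Gjc1, to nodal tissue and the early heart. HCN channels open on hyperpolarisation and carry the pacemaker current; Hcn4 is the main form of the sinus node and Hcn2 is found in working muscle. T-type calcium channels open at negative voltages, and their subunits Cav3.1 (Cacna1g) and Cav3.2 (Cacna1h) are prominent in the fetal heart, in pacemaker and atrial cells and, for Cav3.2, in vascular smooth muscle.

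Libraries held 110803307 to 154003318 estimated counts, and the smallest member value, 300 estimated counts for Gja5 in setanaxib replicate 1, is large enough for counting error to be small beside the spread between libraries. One library stood apart in its marker genes. In setanaxib replicate 3 the summed level of atrial myocyte markers was 3283 CPM (counts per 1e6 after TMM scaling), against 159 to 631 CPM in the vehicle libraries and 92.6 and 148 CPM in the other 2 setanaxib libraries. Of the 12 markers on that list 9 were in the table, and all 8 tested ones, among them Nppa, Myl7 and Myl4, were highest in setanaxib replicate 3. The sum of ventricular markers went the other way, at 5548 CPM in that library and 8576 to 9527 CPM in the other 5. Of the 7 ventricular markers 5 were lowest there, but Hey2 (6.02 CPM) and Kcnj2 (55.0 CPM) lay above every vehicle library. Lung epithelium markers summed to 651 CPM there and to between 0 and 20.6 CPM elsewhere. Over all tested genes, 26.3% were highest and 23.4% lowest in setanaxib replicate 3, and 24.2% were highest and 28.9% lowest in setanaxib replicate 1, against at most 17.3% and 15.7% in any other library. Setanaxib replicate 1 had the largest share of mitochondrial counts (30.0%, against 20.5% to 26.8% in the others) and the smallest TMM factor (0.892). Each member's fold change is given with and without setanaxib replicate 3. Leaving that library out does not make the groups equal in atrial marker RNA, since the remaining libraries still differed in Myl7 and Myl4.

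**Figure D1:**
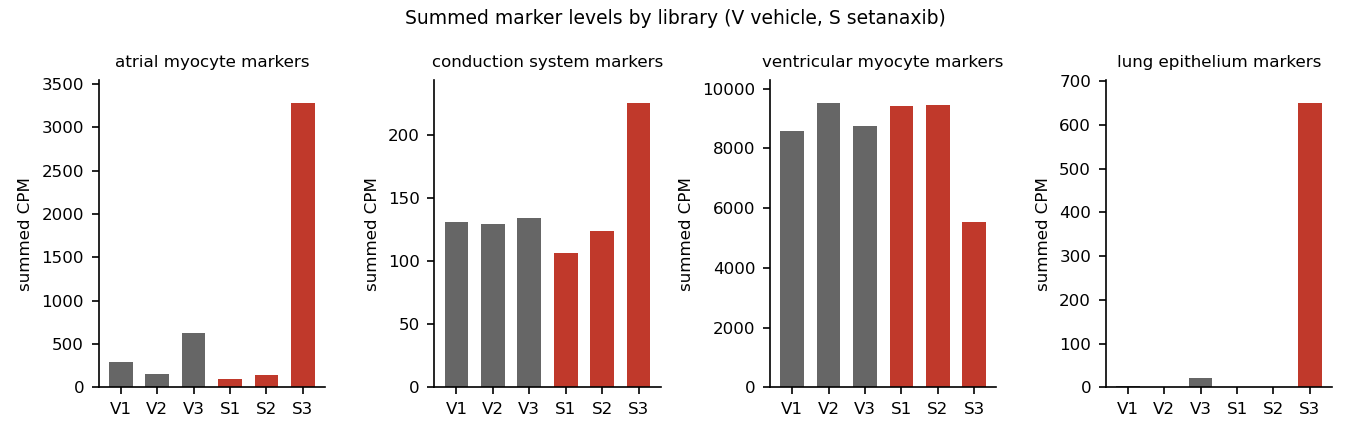
Summed CPM (vertical axis, linear, from 0) of 4 marker lists in each library; V1 to V3 are vehicle and S1 to S3 setanaxib replicates, 1 bar per library. Setanaxib replicate 3 has 3283 CPM of atrial and 651 CPM of lung epithelium markers, and the lowest sum of ventricular markers.

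None of the 7 genes passed edgeR's quasi-likelihood test with Benjamini-Hochberg adjustment, where the adjusted p lay between 0.638 and 0.879. Across all genes that test called 1 of 20472 (0.00488%), which was not a member. At an unadjusted p under 0.05, 0 of the 7 members passed, while 8.46% of all genes did, and DESeq2 and limma-voom also called 0 members. With DESeq2, 2.9% of the genes given an adjusted p were called. The groups did not overlap for 1 member, Gja1, which was lower after setanaxib; over all tested genes they did not overlap for 17.6%, with 9.46% lower. Each library carries its own number in the labels, which do not say in words that these are separate animals; the spread that a p-value is set against is that of the libraries and may be technical.

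**Figure D2:**
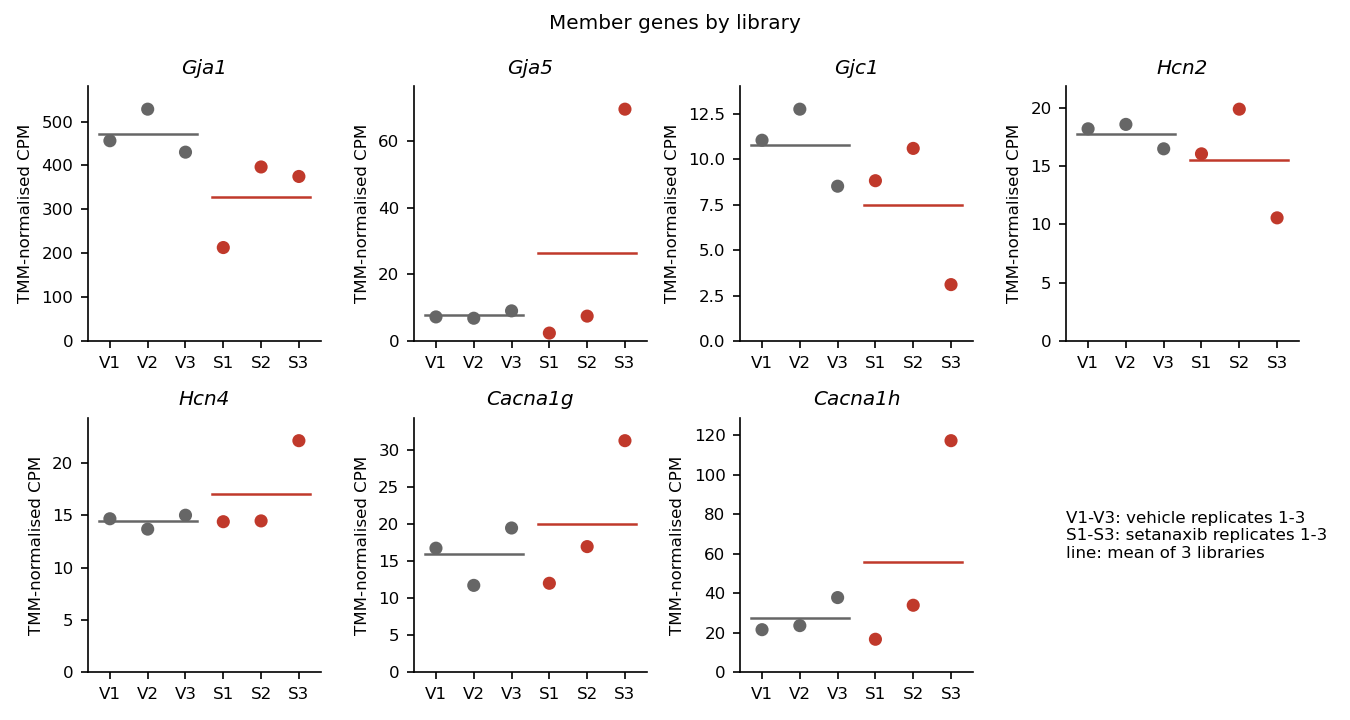
TMM-normalised CPM (vertical axes, linear, from 0) of the 7 genes in each library; points are libraries and lines the mean of 3. Gja1 is lower in all 3 setanaxib libraries, and setanaxib replicate 3 lies highest for Gja5, Hcn4, Cacna1g and Cacna1h and lowest for Gjc1 and Hcn2.

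Gja1, the connexin of the working myocardium, measured 456, 528 and 430 CPM in the vehicle libraries (replicates 1 to 3) against 213, 397 and 375 CPM in the setanaxib libraries. All 3 setanaxib libraries lay below all 3 vehicle libraries, with setanaxib replicate 1 far below the rest. The means were 472 ± 50.8 CPM (SD, n = 3) and 328 ± 100.4 CPM, a 1.44-fold lower level after setanaxib. The log2 fold change was -0.52 (SE 0.24, 95% interval -1.11 to 0.07; edgeR adjusted p = 0.638), and the lowest unadjusted p among the members, 0.0738, belonged to it. The value was -0.63 without setanaxib replicate 3 and -0.30 without setanaxib replicate 1. In bulk tissue, fewer cells of a type and less RNA per cell cannot be told apart. Cardiomyocyte markers summed to 80978 to 86291 CPM with vehicle and to 87089, 89962 and 65300 CPM after setanaxib. Most of that sum was Ttn (43085 to 45984 CPM with vehicle), and of the 9 markers 6 were lower and 3 higher. Macrophage markers summed to 327 to 418 CPM with vehicle and to 207, 258 and 231 CPM after setanaxib. All 8 of them were lower. Endothelial markers summed to 1003 to 1112 CPM with vehicle and to 711, 934 and 1087 CPM after setanaxib. Of these 7 of 8 were lower, but the sum in setanaxib replicate 3 lay within the vehicle range. Fibroblast markers summed to 1681 to 2381 CPM with vehicle and to 1416, 1699 and 2622 CPM after setanaxib, with 7 of 8 lower. Pericyte markers summed to 996 to 1031 CPM with vehicle and to 950, 1041 and 729 CPM after setanaxib, with 6 of 7 lower. The part of any of these cell types in the Gja1 values was not tested.

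Gja5, the connexin of atrial muscle and conduction fibres, measured 7.22, 6.82 and 9.04 CPM in the vehicle libraries against 2.36, 7.46 and 69.7 CPM after setanaxib. The setanaxib group thus held both the lowest and the highest library of the series. Setanaxib replicate 3 was 7.71 times the next highest library, a ratio that 0.225% of all tested genes reached or exceeded in that library. Means were 7.69 ± 1.18 CPM (SD, n = 3) and 26.5 ± 37.5 CPM, with a log2 fold change of 1.78 (SE 1.13, 95% interval -0.96 to 4.53; edgeR adjusted p = 0.736). Without setanaxib replicate 3 the sign turned, to -0.65 (SE 0.48, edgeR adjusted p = 0.597). Markers of arterial endothelium, the other known site of Gja5, summed to 383 to 417 CPM with vehicle against 217, 334 and 259 CPM after setanaxib, but most of that sum was the chemokine gene Cxcl12 (271 to 301 CPM with vehicle). Of the 9 markers 2 were highest in setanaxib replicate 3, Bmx at 7.14 CPM there against 0.826 to 2.12 CPM elsewhere and Fbln5 at 37.8 CPM, and 1, Sox17, was lowest there. The part of atrial, arterial or lung RNA in the Gja5 value was not tested. On GRCm38 (GENCODE M21) 165 exonic bases of Gja5 overlap Gpr89 on the opposite strand, and no source used here gives the strand setting of the counting; Gpr89 lay between 16.6 and 18.8 CPM in all 6 libraries.

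Gjc1, the connexin of nodal cells and of the embryonic heart, measured 11.1, 12.8 and 8.53 CPM in the vehicle libraries against 8.83, 10.6 and 3.10 CPM after setanaxib. Here setanaxib replicate 3 was the lowest library, and the other 2 setanaxib libraries lay within the vehicle range. The lowest of the other 5 libraries was 2.75 times setanaxib replicate 3, and 1.03% of tested genes lay as far below in that library. The log2 fold change was -0.52 (SE 0.44, 95% interval -1.59 to 0.54; edgeR adjusted p = 0.815), and -0.15 (SE 0.20) without setanaxib replicate 3. Gja5 was thus highest and Gjc1 lowest in the library with the most atrial marker RNA.

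Hcn2, the HCN channel of working muscle, measured 18.2, 18.6 and 16.5 CPM in the vehicle libraries against 16.1, 19.9 and 10.6 CPM after setanaxib. Setanaxib replicates 1 and 2 bracketed the vehicle values and setanaxib replicate 3 was lowest. The log2 fold change of -0.20 (SE 0.23, 95% interval -0.75 to 0.36; edgeR adjusted p = 0.879) became 0.02 (SE 0.13) without setanaxib replicate 3. Hcn4, the main pacemaker channel of the sinus node, measured 14.7, 13.7 and 15.0 CPM in the vehicle libraries against 14.4, 14.5 and 22.1 CPM after setanaxib. Of the 6 libraries 5 lay within 13.7 to 15.0 CPM, and setanaxib replicate 3 stood above them. Its log2 fold change was 0.23 (SE 0.19, 95% interval -0.22 to 0.69; edgeR adjusted p = 0.805). Without setanaxib replicate 3 it was 0.00 (SE 0.10), with a 95% interval of -0.24 to 0.24, the narrowest interval of any member.

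Cacna1g, the Cav3.1 subunit, measured 16.8, 11.7 and 19.5 CPM in the vehicle libraries against 12.0, 17.0 and 31.3 CPM after setanaxib, with overlapping groups. Its log2 fold change was 0.33 (SE 0.38, 95% interval -0.58 to 1.24; edgeR adjusted p = 0.877), and -0.14 (SE 0.26) without setanaxib replicate 3. Cacna1h, the Cav3.2 subunit, measured 21.6, 23.7 and 37.8 CPM in the vehicle libraries against 16.8, 33.9 and 117 CPM after setanaxib. Setanaxib replicate 3 was 3.10 times the next highest library, and 0.913% of tested genes reached that ratio there. Means were 27.7 ± 8.83 CPM (SD, n = 3) and 55.9 ± 53.7 CPM, with a log2 fold change of 1.01 (SE 0.69, 95% interval -0.67 to 2.69; edgeR adjusted p = 0.760). Without setanaxib replicate 3 it was -0.12 (SE 0.38, edgeR adjusted p = 0.907). Markers of smooth muscle, another site of Cav3.2, summed to 1601 to 1741 CPM with vehicle and to 1469, 1523 and 994 CPM after setanaxib, but most of that sum was Des, which heart muscle cells express too. Of the 8 markers 3 (Cnn1, Lmod1 and Smtn) were highest in setanaxib replicate 3, with Cnn1 at 2.57 CPM there against 0.287 to 1.74 CPM elsewhere, and 2 (Acta2 and Des) were lowest there. The part of atrial, smooth muscle or lung RNA in the Cacna1h value was not tested. Exons of Cacna1h and of Tpsg1, on the opposite strand, share 158 bases on GRCm38, and Tpsg1 was at 0 in all 6 libraries.

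**Figure D3:**
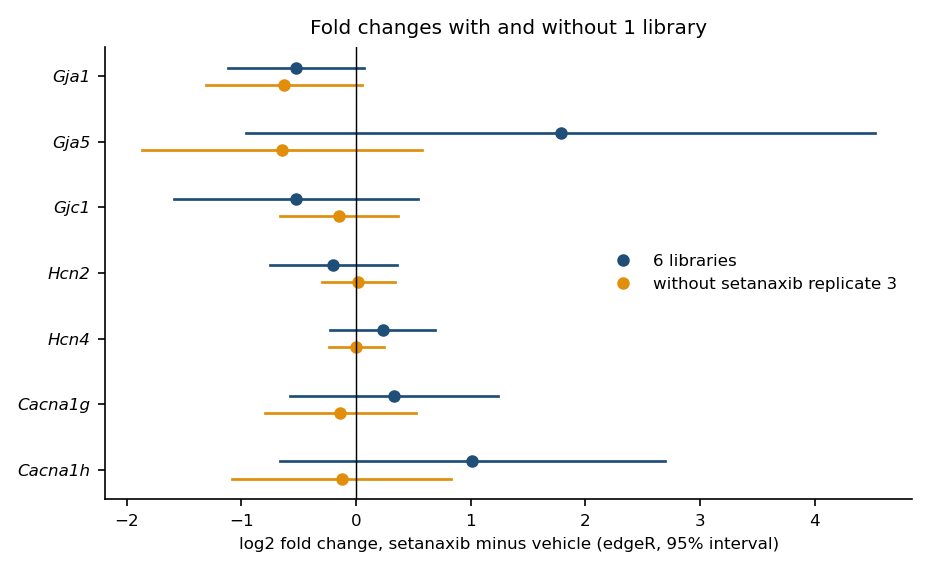
edgeR log2 fold change, setanaxib minus vehicle (horizontal axis), of each gene with its 95% interval, from all 6 libraries (blue) and without setanaxib replicate 3 (orange). Every interval spans 0, and the values of Gja5, Hcn2, Cacna1g and Cacna1h change sign when that library is left out.

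Conduction system markers were read beside these genes. Their sum was 130 to 134 CPM with vehicle against 107, 124 and 226 CPM after setanaxib, and 7 of the 9 tested ones were highest in setanaxib replicate 3. Cacna2d2, an accessory calcium channel subunit on that list, accounted for 59.8 CPM of the 226, against 1.77 to 4.35 CPM in the other libraries. The nodal transcription factors Shox2 and Isl1 were low, and so was the marker Cpne5. Shox2 was at 0 in 5 libraries and at 0.480 CPM in setanaxib replicate 1. Isl1 and Cpne5 were each at 0 in 5 libraries, and at 0.402 and 2.61 CPM in setanaxib replicate 3. Tbx3, which represses working muscle genes in the conduction system, measured 28.9, 28.7 and 28.8 CPM in the vehicle libraries against 19.7, 23.7 and 23.1 CPM after setanaxib. Vsnl1 was at 0 in every library. The part of conduction tissue in the values of Hcn4 and Gja5 was not tested, nor was that of lung RNA in these or in the Cacna2d2 value.

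Levels of different genes were compared per kilobase of exon (all GENCODE M21 exons of a gene on GRCm38 joined), as CPM per kilobase. Gja1 was by far the most abundant, with a vehicle mean of 46.0 CPM per kilobase, followed by Hcn2 at 5.56. Cacna1h at 2.84, Hcn4 at 2.36, Gjc1 at 2.16, Cacna1g at 1.58 and Gja5 at 1.34 CPM per kilobase came next, and each of these neighbours overlapped the next in its vehicle libraries. Scaled by the longest coding transcript instead, Gjc1 moved up to 4.66 CPM per kilobase, above Cacna1h at 3.36, and Gja5 at 2.10 moved above Cacna1g at 1.91, so the order below Hcn2 depends on the length used. In setanaxib replicate 3 Gja5 reached 12.1 and Cacna1h 12.0 CPM per kilobase, both above Hcn2 at 3.31 CPM per kilobase in that library.

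Ratios of counts of 2 genes of one family within a library need no scaling between libraries; not being per length, they are compared only across libraries. Gja5 counts were 1.58%, 1.29% and 2.10% of Gja1 counts in vehicle replicates 1 to 3 and 1.11%, 1.88% and 18.6% in setanaxib replicates 1 to 3. Gjc1 counts were 2.42%, 2.42% and 1.98% of Gja1 with vehicle and 4.15%, 2.68% and 0.829% with setanaxib, so both setanaxib replicates 1 and 2 lay above the vehicle range and replicate 3 below it. Hcn4 counts were 73.7% to 91.1% of Hcn2 counts with vehicle and 89.7%, 72.8% and 210% in setanaxib replicates 1 to 3; per kilobase, too, setanaxib replicate 3 was the library in which Hcn4 exceeded Hcn2, at 3.62 against 3.31 CPM per kilobase. Cacna1g counts were 49.6% to 77.6% of Cacna1h with vehicle and 71.8%, 50.0% and 26.7% with setanaxib. The differences in mean log2 ratio, setanaxib minus vehicle, were 1.06, -0.11, 0.45 and -0.35 in that order. In exact two-sided permutation tests over the 6 libraries p was 0.7, 1, 0.7 and 0.5, and 0.933 or 1 after adjustment over the 4 ratios, where 3 libraries against 3 cannot give a p below 0.1.

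**Figure D4:**
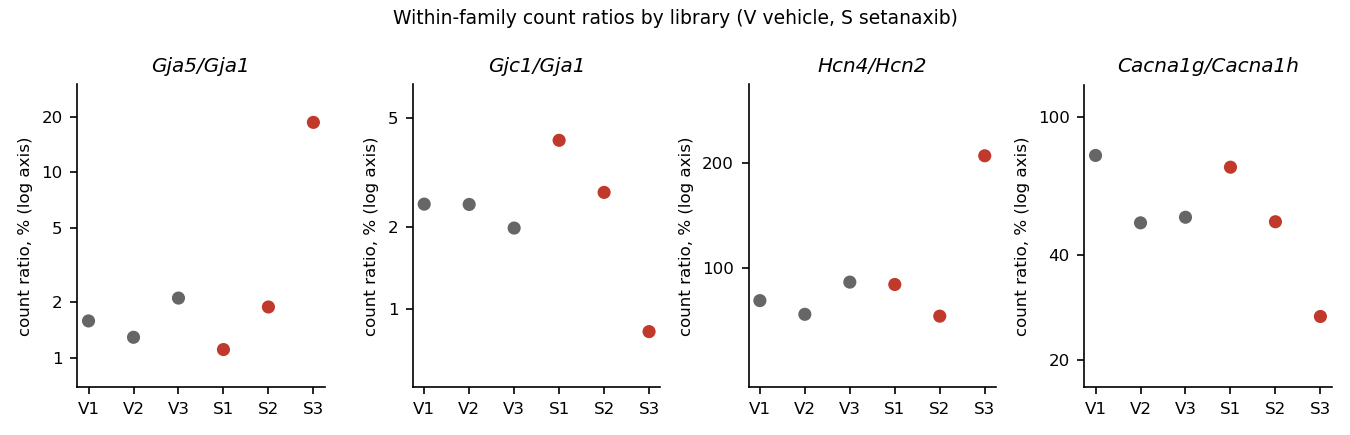
Ratio of estimated counts of 2 genes in percent (vertical axes, logarithmic) by library, V for vehicle and S for setanaxib replicates. Setanaxib replicate 3 lies outside the other 5 libraries in every panel, with Gja5 at 18.6% of Gja1 and Hcn4 at 210% of Hcn2.

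Promoters of 4 of the 7 genes were in the RefSeq table (GRCm38.p6), and the 250 bases before each start are shown because they set the genes that were highest in setanaxib replicate 3 (Gja5 and Hcn4) beside those that were not (Gja1 and Hcn2). They lie at chr3:97032152-97032401 (Gja5), chr9:58822699-58822948 (Hcn4), chr10:56377050-56377299 (Gja1) and chr10:79716384-79716633 (Hcn2), all on the plus strand. Capitals mark matches on either strand to 1 of 6 motifs: the letters AGATAA bound by GATA factors, AGGTGTGA by T-box factors, CAAGTG by NKX2-5, GGGCGG (the GC box), TATAAA (the TATA box) and TGANTCA bound by AP-1.
Gja5: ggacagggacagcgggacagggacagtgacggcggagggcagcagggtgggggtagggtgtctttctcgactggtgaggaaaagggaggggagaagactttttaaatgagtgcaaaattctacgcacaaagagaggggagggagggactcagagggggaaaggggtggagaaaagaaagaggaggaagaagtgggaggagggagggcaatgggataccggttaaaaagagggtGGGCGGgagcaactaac
Hcn4: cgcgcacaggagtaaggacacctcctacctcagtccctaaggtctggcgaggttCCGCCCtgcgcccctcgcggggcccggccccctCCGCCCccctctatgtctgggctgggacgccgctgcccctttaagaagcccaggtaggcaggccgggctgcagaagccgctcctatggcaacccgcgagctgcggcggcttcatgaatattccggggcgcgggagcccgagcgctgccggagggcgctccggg
Gja1: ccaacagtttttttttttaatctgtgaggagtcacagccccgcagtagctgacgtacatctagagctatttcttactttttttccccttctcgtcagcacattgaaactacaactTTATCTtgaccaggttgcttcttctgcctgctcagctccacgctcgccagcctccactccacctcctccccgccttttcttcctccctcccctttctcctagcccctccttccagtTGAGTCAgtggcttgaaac
Hcn2: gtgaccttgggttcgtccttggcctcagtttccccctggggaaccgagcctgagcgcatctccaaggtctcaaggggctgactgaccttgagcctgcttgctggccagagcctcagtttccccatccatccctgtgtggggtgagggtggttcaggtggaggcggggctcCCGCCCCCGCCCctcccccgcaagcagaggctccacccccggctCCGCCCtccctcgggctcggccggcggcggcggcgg
Hcn4 holds 2 GC boxes, Hcn2 holds 3 and Gja5 holds 1, a motif found in 32.7% of the 32851 promoter windows of the table. Gja1 holds 1 GATA match, 135 bases before the start, and 1 AP-1 match, 19 bases before it, which 9.99% and 6.75% of windows hold. No match overlaps another. The T-box letters, found in 1.12% of windows, and those of NKX2-5 (11.6%) and TATA (12.4%) were in none of the 4 windows. Base composition differed, with 71.2% G and C in Hcn4, 70.4% in Hcn2, 56.4% in Gja5 and 50% in Gja1. A match is a description of letters only.

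Most other genes of the connexin and pannexin families were low in these hearts. Gja3 was an exception, with a vehicle mean of 10.7 CPM beside 10.8 CPM for Gjc1, neither scaled by length. Of 20 listed, 18 were in the table and 6 were tested, 3 with a higher and 3 with a lower value after setanaxib, with a median log2 fold change of -0.01, beside 0.01 over all tested genes. edgeR called 0 of the 6, with 3 at an unadjusted p under 0.05, beside 8.46% of all tested genes. The groups did not overlap for 4 of the 6, beside 17.6% of all tested genes. Gja3, the lens connexin 46, was at 9.64 to 11.2 CPM with vehicle and 12.6 to 13.9 CPM with setanaxib (log2 fold change 0.32, SE 0.11, edgeR adjusted p = 0.508), with groups that did not overlap. Panx1, a channel that releases ATP, was at 2.96 to 3.70 CPM and 1.97 to 2.24 CPM (log2 fold change -0.68, SE 0.17, edgeR adjusted p = 0.396), and DESeq2 called it (adjusted p = 0.0197). Gja4, the connexin 37 of arterial endothelium, was at 5.98 to 6.24 CPM and 3.76 to 5.68 CPM (log2 fold change -0.35, SE 0.18). The values of Gja3, Panx1 and Gja4 were 0.32, -0.64 and -0.49 without setanaxib replicate 3.

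Genes of the intercalated disc, the site of contact between heart muscle cells that holds their gap junctions, were read as a list. Of 17 tested, 7 were higher and 10 lower with a median log2 fold change of -0.07, and edgeR called 0. At an unadjusted p under 0.05 there were 3, beside 8.46% of all tested genes. The groups did not overlap for 3, beside 17.6% of all tested genes. Dsp (desmoplakin, which ties the disc to intermediate filaments), Cdh2 (N-cadherin) and Jup (plakoglobin) lay at log2 fold changes between -0.16 (Dsp, SE 0.12) and -0.03 (Cdh2, SE 0.14), with Jup at -0.11 (SE 0.10). Without setanaxib replicate 3 these were -0.07 (Dsp) and -0.06 (Jup), and Cdh2 turned to 0.08. Ctnna3, alpha-T-catenin, was at 74.3 to 82.8 CPM with vehicle and 95.1 to 104.7 CPM with setanaxib (log2 fold change 0.33, SE 0.09, edgeR adjusted p = 0.419), and DESeq2 called it (adjusted p = 0.0074). Dsg2, the desmosomal cadherin of heart, was at 74.6 to 82.9 CPM and 85.8 to 126 CPM (log2 fold change 0.49, SE 0.16, edgeR adjusted p = 0.490). Neither gene's groups overlapped, and both kept a positive value without setanaxib replicate 3, at 0.29 and 0.42.

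Partners of the pacemaker channels were tested for 6 of the 9 genes in the table, 3 higher and 3 lower, with a median log2 fold change of -0.04. edgeR called 0, with 1 at an unadjusted p under 0.05, beside 8.46% of all tested genes. Popdc2 and Bves, cyclic AMP-binding membrane proteins of heart muscle, gave log2 fold changes of -0.14 (SE 0.11) and 0.05 (SE 0.09). They lay at -0.05 and 0.13 without setanaxib replicate 3. Lrmp, an endoplasmic reticulum protein that regulates HCN4, was at 1.94 to 2.40 CPM with vehicle and 1.12 to 1.61 CPM with setanaxib (log2 fold change -0.59, SE 0.22, edgeR adjusted p = 0.548). Mrvi1, its relative that regulates HCN4 too, was at 12.8 to 15.7 CPM with vehicle against 8.65, 12.7 and 55.0 CPM after setanaxib. Its log2 fold change of 0.81 (SE 0.68) turned to -0.44 (SE 0.20) without setanaxib replicate 3, the same turn of sign as Gja5.

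Of the other voltage-gated calcium channel genes, 15 of 22 were tested, 7 higher and 8 lower with a median log2 fold change of -0.20. edgeR called 0, with 2 at an unadjusted p under 0.05, beside 8.46% of all tested genes. Cacna1c, the L-type channel of heart muscle, measured 563, 553 and 576 CPM in the vehicle libraries against 801, 672 and 466 CPM after setanaxib. Setanaxib replicates 1 and 2 lay above and replicate 3 below every vehicle library, whereas Gja5 and Cacna1h were lowest in replicate 1 and highest in replicate 3. Its log2 fold change was 0.20 (SE 0.20, edgeR adjusted p = 0.854), and 0.39 (SE 0.09, edgeR adjusted p = 0.231) without setanaxib replicate 3. The accessory subunit gene Cacna2d1 had 0.10 (SE 0.16) and 0.26 (SE 0.08) in the same fits. Rrad, which restrains L-type channels, had -0.29 (SE 0.15), and Cacnb1 -0.53 (SE 0.19). Cacng6 was at 0.569 to 0.719 CPM and 1.14 to 1.74 CPM (log2 fold change 1.07, SE 0.27, edgeR adjusted p = 0.396), a low level at which DESeq2 made a call (adjusted p = 0.0450). Without setanaxib replicate 3, 8 of these 15 genes had an unadjusted p under 0.05, beside 13.6% of all genes in that fit, and edgeR called 0 of them.

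Transcription factors that pattern conduction tissue were tested for 19 of 23 genes, 10 of them higher and 9 lower, with a median log2 fold change of 0.00. edgeR called 0. At an unadjusted p under 0.05, which 8.46% of all tested genes had, there were 2 of these factors. These were Tbx3 (log2 fold change -0.38, SE 0.10, edgeR adjusted p = 0.416), which DESeq2 called (adjusted p = 0.0150), and the ventricular factor Irx4 (-0.57, SE 0.19, edgeR adjusted p = 0.508). Without setanaxib replicate 3 the value of Tbx3 was -0.40 and that of Irx4 -0.42. Tbx20, Prox1 and Gata4, factors of heart muscle development, had -0.17 (SE 0.23), -0.27 (SE 0.25) and -0.38 (SE 0.22), and -0.42 (SE 0.16), -0.39 (SE 0.27) and -0.45 (SE 0.24) without that library.

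**Figure D5:**
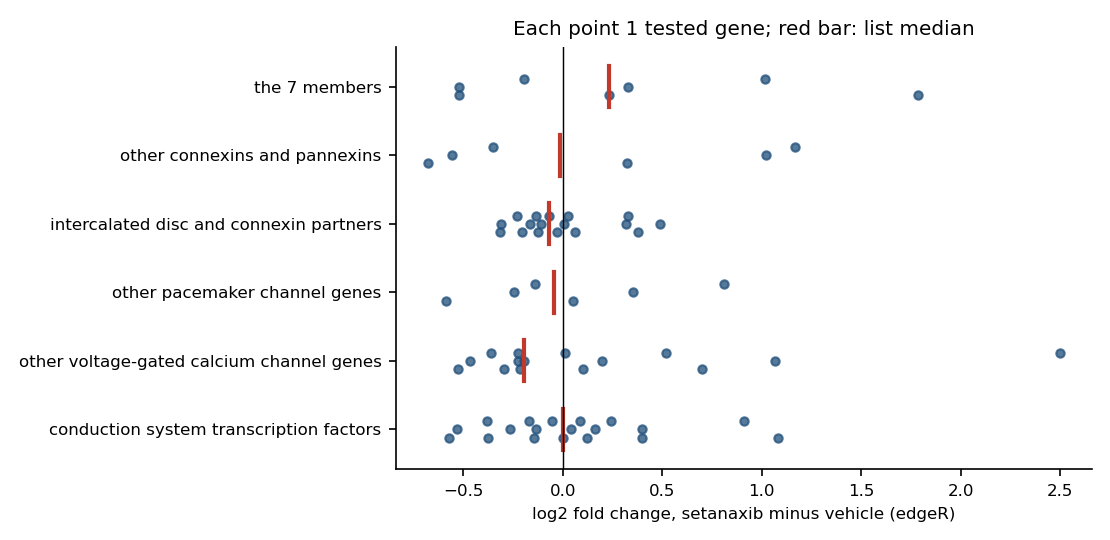
edgeR log2 fold change, setanaxib minus vehicle (horizontal axis), of each tested gene of the 7 members and of 5 related lists; points are genes, their small vertical offset has no meaning, and the red bar is the list median. List medians lie between -0.20 and 0.23, and edgeR called none of the genes shown.

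The genes whose profile over the 6 libraries was most like each member were taken from 10127 tested, named genes by Pearson's r of log2 CPM; they are a description, since with 6 points 75 to 246 genes per member exceeded an r of 0.95. For Gja1 these were Kctd12b (r = 0.998) and Fadd (r = 0.998), both lowest in setanaxib replicate 1. Gja5 was followed by Mapk12 (r = 0.996) and Klhdc7a (r = 0.995), and Cacna1h by Dpysl4 (r = 0.995) and Vmac (r = 0.993), all highest in setanaxib replicate 3. Cacna1g was nearest to Igfbp3 (r = 0.995) and Myg1 (r = 0.993), and Hcn4 to Grina (r = 0.998) and Daam2 (r = 0.998). Gjc1 went with Mphosph8 (r = 0.996) and Nol8 (r = 0.995), and Hcn2 with Gucy1a2 (r = 0.999) and Foxred1 (r = 0.995), all lowest in setanaxib replicate 3. Without that library r stayed at 0.916 or more for each of these genes, the lowest being Daam2 with Hcn4. The genes had been picked for a high r that included the remaining libraries, so this is no separate check.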

How the data were processed

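RNA of 6 heart samples, 3 per group, was measured by paired-end sequencing. The authors deposited unscaled estimated counts; these were whole numbers already, so no rounding was needed, and the count test planned for raw counts was kept. STAR 2.5.4b, featureCounts 2.0.1, FastQC 0.11.9, DESeq2 1.42.0 and the build GRCm39 appear in the submitters' processing notes, with no role given. Per the file headers, names have the form written by StringTie's count script.

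In R 4.3.3, genes were kept by filterByExpr (minimum 10 counts) and tested with edgeR 4.0.16 (TMM scaling, quasi-likelihood F test, two-sided, Benjamini-Hochberg over 20472 genes, threshold 0.05), after a test on simulated data. That simulation capped the spread between libraries, so it cannot speak for genes as variable as Gja5 and Cacna1h (within-group SD of log2 CPM 1.76 and 1.05). Standard errors and 95% intervals were derived from the F statistic. Ratios used a pseudocount of 0.5 counts. Alternatives were other scalings and filters, DESeq2, limma-voom (limma 3.58.1) and leaving out each library. Replicate numbers follow record order and pair nothing. The members and lists were chosen with earlier results of these data known. From each related list, the 3 genes of highest mean CPM and the 2 of lowest p are named, and for each member the 2 genes of highest r (average log2 CPM of at least 2, prior count 2, no predicted genes).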

Additional observations from a re-analysis of the deposited data

How the results depend on the processing

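No paired analysis was possible because each library carries its own number in the labels and none is shared between the groups. Leaving out setanaxib replicate 3 turned the sign of 4 members and of all 4 ratios, none of which passed a test. Over the fits that leave out 1 library, log2 fold changes ran from -0.65 to 2.32 for Gja5, -0.42 to 0.021 for Hcn2, -0.14 to 0.59 for Cacna1g and -0.12 to 1.44 for Cacna1h. Those of Gja1, Gjc1 and Hcn4 kept their sign, from -0.68 to -0.30, -0.86 to -0.15 and 0.00 to 0.34. Differences in log2 ratio ran from -0.17 to 1.86 (Gja5/Gja1), -0.60 to 0.56 (Gjc1/Gja1), -0.012 to 0.75 (Hcn4/Hcn2) and -0.67 to 0.039 (Cacna1g/Cacna1h). Under other scalings, filters and tools no member changed sign or passed the threshold; the lowest adjusted p was 0.319 (Gja1, DESeq2), and the value of Gja5 was 0.50 by limma-voom. The number of genes called over the whole table was 487 by DESeq2 and 0 by limma-voom, and 0 to 1 with 1 library left out (0 without vehicle replicate 1, 2 or 3). The median log2 fold change of other connexins and pannexins was 0.42 with no low-count filter (11 tested), -0.52 by limma-voom and between -0.64 and 0.16 with 1 library left out, and that of intercalated disc genes between -0.15 and 0.031; the cause was not tested. With 3 libraries a group and 1 of them apart, the intervals for Gja5 and Cacna1h are too wide to bound a change.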

Other observations

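Genes outside the naming rule, chosen after their values were seen, showed the same library apart. Tbx5, on the list of factors that pattern conduction tissue, measured 41.9, 36.7 and 49.7 CPM in the vehicle libraries against 41.8, 69.7 and 160 CPM after setanaxib. Setanaxib replicate 2 thus lay above every vehicle library too, with the atrial marker Myl7 at only 1.33 CPM. Cacna1d, the L-type channel of pacemaker and atrial cells, measured 2.63 to 3.30 CPM in the vehicle libraries against 2.16, 2.31 and 8.70 CPM after setanaxib. Panx2, a relative of Panx1, was higher in all 3 setanaxib libraries, at 1.58, 1.64 and 4.39 CPM against 1.11 to 1.16 CPM with vehicle (log2 fold change 1.17, SE 0.44, edgeR adjusted p = 0.548).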
